A study of Mus musculus with 8 samples.

Results

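The LIF receptor, JAK and STAT3 pathway was followed through 10 genes: the receptor chains Lifr, Il6st, Osmr and Il6ra, the kinases Jak1 and Jak2, the transcription factor Stat3 and the pathway targets Socs3, Pim1 and Pim3. They were taken by name from 32780 genes to which transcripts of the series could be joined, and all 10 were found and passed the filter on low counts. RNA came from TC1 cells, which are mouse embryonic stem cells of wild-type genotype, in 4 libraries of cells differentiated to day 10 and 4 libraries of day 0 stem cells taken before differentiation. Both groups share cell line and genotype, both were dissociated into single cells before total RNA was extracted, and the labels name no agent, medium or feeder layer for either day. The cells come from 1 line. Whether libraries of a day are separate cultures is not stated in the labels, and the p-values below therefore reflect only how these libraries vary, which may be technical.

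Leukaemia inhibitory factor (LIF) binds LIFR, which pairs with gp130, the signalling chain encoded by Il6st and shared by all cytokines of the interleukin-6 family. JAK kinases bound to the receptor tails phosphorylate STAT3, which enters the nucleus and turns on target genes, among them Socs3, whose product shuts the receptor complex down again. In mouse embryonic stem cells this pathway is known for sustaining self-renewal in culture, and gp130 signalling is also used by many differentiated tissues, including heart muscle, blood vessels, liver and blood.

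Libraries held 13525255 to 17843651 estimated counts at day 10 and 11242568 to 15808039 at day 0, so that depth overlapped. The groups matched their labels in the stem cell markers: the 7 markers (Pou5f1, Nanog, Esrrb, Zfp42, Tdgf1, Dppa5a and Utf1) had sums of 6.62 to 12.3 CPM in the day 10 libraries, against 3005 to 3356 CPM in the day 0 libraries. CPM is a gene's estimated count brought to a common library total, here with TMM scaling, which corrects for library composition. Day 10 held markers of several cell types. Cardiomyocyte markers summed to 394 to 612 CPM at day 10 and 50.6 to 63.0 CPM at day 0, where Ryr2 alone averaged 50.8 CPM. Of the 9 markers 8 could be tested and all 8 were higher, beside 42.7% of all genes tested. Nkx2-5, too low to test, had 56 counts over the 4 day 10 libraries and 2 over those of day 0. The label of the day 10 cells says only that they were differentiated.

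Of the 10 genes, 7 rose, 2 fell and Pim1 did not pass the test (edgeR quasi-likelihood test, Benjamini-Hochberg adjusted p under 0.05). The median log2 fold change of the 10 was 0.58, beside 0.06 over all genes tested. Across all 15097 genes tested, 82.1% were called, 42.7% higher and 39.4% lower at day 10, so that 9 called genes of 10 is a share near the background. CPM ranges of the days did not overlap for 9 of the 10 genes, against 77.9% of all genes tested. Log2 fold changes below are day 10 over day 0 with their SE, and n is 4 libraries per day throughout. In bulk RNA, more cells of a type and more transcript per cell cannot be told apart.

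**Figure D1:**
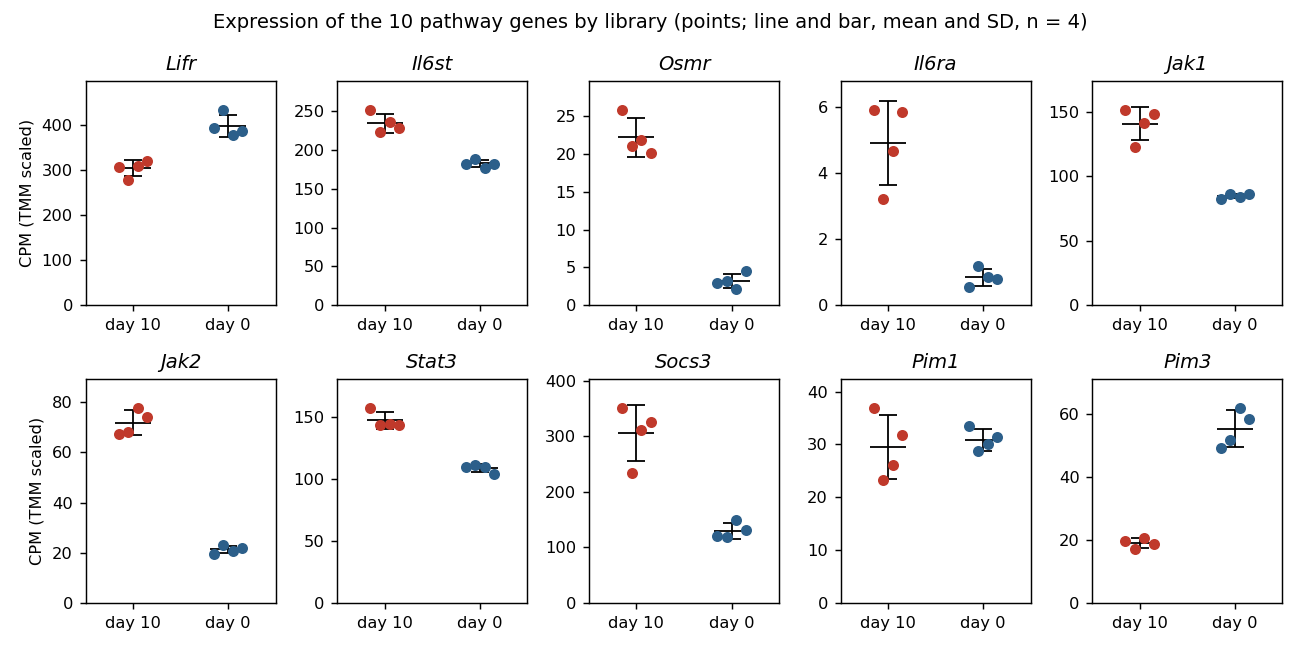
CPM of the 10 genes in every library, one panel per gene, day 10 left of day 0. Points are libraries, and the line and bar are mean and SD of 4. Osmr, Il6ra, Jak1, Jak2, Stat3, Socs3 and Il6st lie higher at day 10, Lifr and Pim3 lower, and the points of Pim1 overlap.

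Lifr (ENSMUSG00000054263, chromosome 15), the chain that binds LIF, was lower at day 10 by counts. It had 306, 278, 309 and 319 CPM in the day 10 libraries, against 394, 432, 377 and 386 CPM in the day 0 libraries. Every day 10 library lay below every day 0 library. The mean was 303 ± 17.6 CPM at day 10 and 397 ± 24.0 CPM at day 0 (SD), a log2 fold change of -0.39 ± 0.07 (edgeR adjusted p = 6.74e-05). This fall depended on the scale: with an offset for average transcript length it was -0.15 (edgeR adjusted p = 0.284, the highest of 20 alternatives from 6.49e-10), and with the trend of counts with gene length removed it was -1.17 (edgeR adjusted p = 6.49e-10). On log2(TPM + 1) it was 0.23, and -0.15 after subtracting the all-gene median.

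TPM, which also scales for transcript length, was moved in Lifr by 1 short model. Lifr-205, a non-coding transcript of 299 nt, held 24.2, 35.0, 55.2 and 77.4 TPM in the day 10 libraries, against 17.1, 0.0140, 8.52 and 31.2 TPM in those of day 0. Its mean count was only 51.5 at day 10 and 17.0 at day 0. Without non-coding models Lifr had 93.6 ± 2.69 TPM at day 10 and 103 ± 8.10 TPM at day 0, with overlapping ranges.

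Lifr makes 2 complete coding forms in the annotation, the membrane receptor of 1092 codons and a form of 719 codons without the membrane anchor, known in mouse as soluble LIF receptor. The membrane form held 90.7 ± 3.90 TPM at day 10 and 92.7 ± 8.53 TPM at day 0. The 2 protein-coding models of the 719-codon form held 1.66 ± 0.842 TPM at day 10 and 0.344 ± 0.304 TPM at day 0. Lifr-206, which has the same coding length but is annotated as subject to nonsense-mediated decay, was more abundant than both together and ran the other way, at 3.31 ± 0.407 TPM at day 10 and 5.37 ± 0.338 TPM at day 0. All 3 models of 719 codons summed to 3.97, 6.43, 4.65 and 4.85 TPM in the day 10 libraries, against 5.08, 5.28, 6.30 and 6.21 TPM in the day 0 libraries, with overlapping ranges. The membrane form was thus by far the more abundant in every library. These forms were singled out after their values were seen, and no test was made.

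Il6st (ENSMUSG00000021756, chromosome 13), which encodes gp130, was higher at day 10 by counts. It had 251, 223, 236 and 228 CPM in the day 10 libraries, against 182, 189, 177 and 182 CPM in the day 0 libraries. The ranges did not overlap, with a log2 fold change of 0.36 ± 0.06 (edgeR adjusted p = 5.18e-05). Its direction turned when the trend of counts with gene length was removed, to -0.36 (edgeR adjusted p = 8.95e-05, 20 alternatives from 3.65e-08 to 5.48e-04). Il6st transcripts are long, and the 2 full-length models in use measure 5207 and 8678 nt.

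Per length, the balance of the LIF receptor chains differed between the days. Coding TPM of Lifr over that of Il6st was 0.946, 1.06, 1.13 and 1.20 in the day 10 libraries, against 1.94, 2.12, 2.03 and 2.07 in the day 0 libraries. In coding TPM the chains were near parity at day 10, and Lifr stood at 2.04 ± 0.0746 times Il6st at day 0. Coding models of Il6st include Il6st-206 of only 164 codons, at 11.3 TPM at day 10 and 5.96 TPM at day 0. Membrane Lifr of 1092 codons held 89.9, 85.5, 93.3 and 94.0 TPM in the day 10 libraries. Full-length Il6st of 917 codons held less there, at 77.6, 69.9, 70.6 and 68.3 TPM. At day 0 these forms averaged 92.7 and 44.0 TPM. Only coding models, short ones included, enter the ratio of Lifr to Il6st, which was formed after the values were seen and was not tested.

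Osmr (ENSMUSG00000022146, chromosome 15), the chain that pairs with gp130 to receive oncostatin M, rose together with Il6ra more than the other 8 genes by counts. It had 25.8, 21.1, 21.9 and 20.1 CPM in the day 10 libraries, against 2.95, 3.20, 2.19 and 4.52 CPM in the day 0 libraries. The ranges were far apart, and the log2 fold change was 2.76 ± 0.18, a 6.79-fold rise (edgeR adjusted p = 4.18e-09). The coding form, Osmr-201, stood at 3.54 ± 0.598 TPM at day 10 and 0.722 ± 0.224 TPM at day 0.

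More than the coding form of Osmr went up. Models with a retained intron held 58.8, 56.3, 54.4 and 64.8% of Osmr counts in the day 10 libraries, against 15.9, 23.1, 26.4 and 21.03% in the day 0 libraries. Over all genes, retained-intron models held 7.75 to 8.41% of counts in the day 10 libraries, against 6.52 to 6.96% in those of day 0. With counts of coding transcripts only, the log2 fold change of Osmr was 1.90, below the 2.56 of Il6ra and still called (edgeR adjusted p = 1.12e-05, the highest of 20 alternatives from 4.60e-43). The ratio of coding TPM of Osmr to Lifr was 0.0380 ± 0.00701 at day 10 and 0.00703 ± 0.00218 at day 0, so that Lifr remained by far the more abundant chain.

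Il6ra (ENSMUSG00000027947, chromosome 3), the chain that binds interleukin-6, rose, and was the lowest of the 10 genes in CPM and in TPM on both days. It had 5.89, 3.21, 4.67 and 5.83 CPM in the day 10 libraries, against 0.553, 1.18, 0.842 and 0.785 CPM in the day 0 libraries. Day 10 library 2 was the lowest of its day and still lay above every day 0 library. The log2 fold change was 2.51 ± 0.30, a 5.70-fold rise (edgeR adjusted p = 2.54e-06), resting on 300 counts over the 4 day 10 libraries and 45 over those of day 0. Both annotated models encode the receptor at nearly equal length, and the gene was at 2.37 ± 0.719 TPM at day 10 and 0.310 ± 0.0781 TPM at day 0.

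Both rises stood beside higher sums of marker genes of several cell types. Of all genes tested, 42.7% were called higher at day 10. The 8 fibroblast markers summed to 5232 to 9452 CPM in the day 10 libraries, against 125.6 to 141.04 CPM in the day 0 libraries, and 7 rose. The 6 leukocyte markers summed to 44.8 to 99.7 CPM at day 10 and 3.67 to 4.55 CPM at day 0, where Adgre1 and Tyrobp had 0 counts, and 5 rose. The 6 markers of visceral endoderm and hepatocytes summed to 238 to 555 CPM at day 10 and 4.11 to 7.20 CPM at day 0, where Alb and Apoa2 had 0 counts, and 5 rose. The 6 endothelial markers summed to 409 to 499 CPM at day 10 and 48.0 to 52.1 CPM at day 0, and 5 rose. Their part in the levels of Osmr and Il6ra was not tested.

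Jak1 (ENSMUSG00000028530, chromosome 4), the kinase on which gp130 signalling chiefly depends, was higher at day 10. It had 151.4, 123.1, 141.2 and 148.5 CPM in the day 10 libraries, against 82.8, 86.0, 84.4 and 86.6 CPM in the day 0 libraries, without overlap. The log2 fold change was 0.73 ± 0.07 (edgeR adjusted p = 2.89e-07), and the call ended with the length trend removed, at 0.16 (edgeR adjusted p = 0.0823, the highest of 20 alternatives from 4.00e-17). Jak1 was mostly 1 full-length model, Jak1-201, with 89.7 ± 1.96% of its TPM at day 10 and 93.8 ± 3.26% at day 0.

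Jak2 (ENSMUSG00000024789, chromosome 19), a kinase also used by many other cytokine receptors, rose more than Jak1. It had 67.5, 68.3, 77.7 and 74.2 CPM in the day 10 libraries, against 19.5, 23.0, 20.7 and 21.9 CPM in the day 0 libraries. The log2 fold change was 1.75 ± 0.08, a 3.37-fold rise (edgeR adjusted p = 1.26e-10), and it was called in the same direction under all 20 alternatives, at 1.42 to 2.34. Per length, Jak2 over Jak1 was 0.801 ± 0.0905 at day 10 and 0.339 ± 0.0181 at day 0 in coding TPM, so that Jak1 remained the more abundant kinase in every library. This ratio includes Jak2-203, an incomplete model, with 23.0 of 46.7 coding TPM of Jak2 at day 10 and 2.64 of 9.15 at day 0. A ratio of models with the full coding sequence alone was not formed.

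The leading Jak2 model was Jak2-203, of 2219 nt and annotated as incomplete, which covers only part of the kinase. It held 45.8, 55.4, 47.7 and 47.6% of Jak2 TPM in the day 10 libraries, against 23.6, 22.2, 29.9 and 39.2% in the day 0 libraries. The difference of 20.4 percentage points, without overlap, reached the smallest p the design allows (two-sided exact permutation test over 70 assignments, p = 0.0286, adjusted p = 0.0762 over 8 genes). The 3 models with the full coding sequence also differ in level between libraries of 1 day: Jak2-201 was listed at 8.98, 4.44, 6.24 and 3.93 TPM and Jak2-202 at 0.0005, 5.81, 4.95 and 2.72 TPM in the day 10 libraries, so that the level of any single one of these models is uncertain.

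Stat3 (ENSMUSG00000004040, chromosome 11), the transcription factor at the end of the pathway, was higher at day 10 by counts. It had 157.2, 143.4, 144.4 and 143.3 CPM in the day 10 libraries, against 109.4, 111.5, 109.6 and 104.3 CPM in the day 0 libraries. The ranges did not overlap and the spread within a day was small, with a log2 fold change of 0.44 ± 0.06 (edgeR adjusted p = 8.78e-06). The call ended with the length trend removed, at 0.02 (edgeR adjusted p = 0.792, the highest of 20 alternatives from 6.90e-11). On log2(TPM + 1) it was 1.14, and 0.76 after subtracting the all-gene median, and with coding transcripts only it was 0.36 on counts.

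Stat3 has 2 well-known coding forms, the full-length alpha form and the beta form, whose last coding exon is spliced 50 bases further in, so that the transactivation domain at the end of the protein is replaced by a short tail. The stretch is shown because it separates the forms. It lies at chr11:100889541-100889590 on the minus strand (GENCODE M21, GRCm38), inside the coding sequence, and is given in capitals with 15 bases on either side.
Stat3-203: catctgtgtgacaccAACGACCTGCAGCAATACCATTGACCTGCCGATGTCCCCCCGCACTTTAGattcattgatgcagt
Stat3-202: catctgtgtgacaccattcattgatgcagt
Stat3-203 encodes 770 codons and Stat3-201, which lacks 3 further bases elsewhere, 769 codons, both with the stretch. Stat3-202 lacks it and encodes 722 codons.

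The model of the short form made up more of the coding Stat3 RNA at day 10. Stat3-202 had 8.36, 9.02, 6.59 and 6.30 TPM in the day 10 libraries, against 1.69, 1.21, 1.41 and 0.855 TPM in the day 0 libraries. Its share of complete coding Stat3 TPM was 11.9, 13.6, 10.2 and 9.60% in the day 10 libraries, against 3.98, 2.66, 3.32 and 2.15% in the day 0 libraries, without overlap. Stat3-203 held 56.1 ± 3.54% of it at day 10 and 56.9 ± 4.96% at day 0, and Stat3-201 held 32.6 ± 1.91% at day 10 and 40.0 ± 4.88% at day 0. The models also differ behind the stop codon, where Stat3-202 has 3704 nt, Stat3-203 has 1898 nt and Stat3-201 has 472 nt, and the tables do not show where in a transcript reads lay. Whether the short coding form or its longer end drew the reads was therefore not tested. These shares were formed after the values were seen.

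Intron-containing Stat3 models also took a larger share of counts at day 10. The 9 retained-intron models held 11.3, 12.8, 10.2 and 9.22% of Stat3 counts in the day 10 libraries, against 4.05, 3.44, 3.36 and 2.07% in the day 0 libraries. Because these models are short, they summed to 48.8 TPM at day 10 and 9.89 TPM at day 0 on average, and coding Stat3 stood at 66.6 ± 2.37 TPM at day 10 and 42.6 ± 2.43 TPM at day 0. The leading model, Stat3-203, held 31.8 ± 4.21% of all Stat3 TPM at day 10 and 46.1 ± 6.41% at day 0 (two-sided exact permutation p = 0.0286, the smallest possible, adjusted p = 0.0762 over 8 genes).

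**Figure D2:**
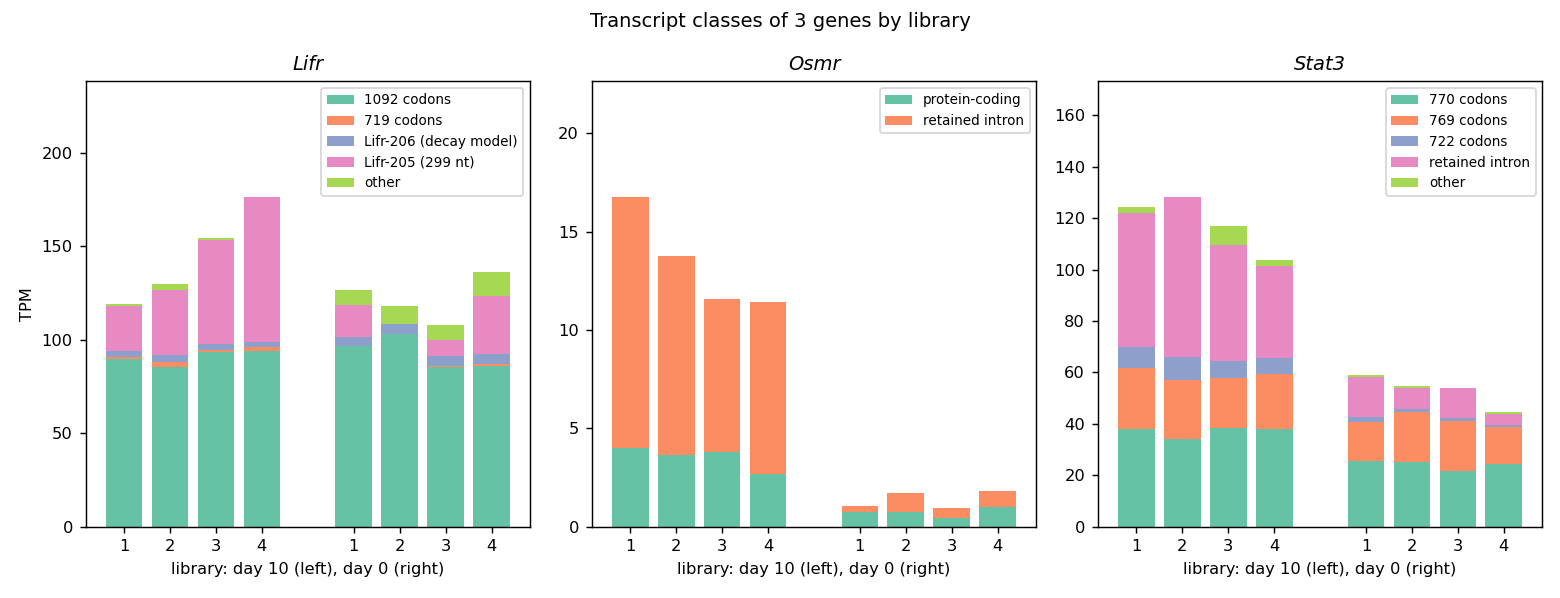
TPM of transcript classes of Lifr, Osmr and Stat3, stacked for each library, with the 4 day 10 libraries left of the 4 day 0 libraries. Membrane Lifr of 1092 codons is level between days while the 299-nt model varies. Lifr-206, annotated as subject to nonsense-mediated decay, is drawn apart from the 719-codon coding models. In the other panels retained-intron models make up most of Osmr at day 10, and the 722-codon form of Stat3 is the thin layer below the retained-intron models, thicker at day 10.

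Transcript use was compared for the 8 genes with at least 2 models over 1 TPM. The leading model Il6st-201 held 54.0 ± 2.40% of Il6st TPM at day 10 and 65.4 ± 2.81% at day 0, also at the smallest p and with an adjusted p of 0.0762 by the exact permutation test. Beside it the full-length model with the longer end, Il6st-203, stood at 24.5 ± 1.53 TPM at day 10 and 11.02 ± 1.18 TPM at day 0. No leading share of TPM passed the threshold after adjustment. The exact permutation test cannot give a p below 0.0286, so over 8 genes 1 gene could pass only if several others reached that p too. The lack of a call is therefore no evidence of equal transcript use. For Osmr, Pim1, Jak1, Pim3 and Lifr the unadjusted exact permutation p was 0.0571, 0.0571, 0.0857, 0.400 and 0.857.

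Socs3 (ENSMUSG00000053113, chromosome 11), a direct STAT3 target and the feedback inhibitor that blocks JAK at the gp130 receptor, rose. It had 350.7, 234.1, 310.6 and 325.4 CPM in the day 10 libraries, against 120.6, 118.3, 148.8 and 130.5 CPM in the day 0 libraries. Day 10 library 2 was the lowest of its day and lay well above the highest day 0 library. The log2 fold change was 1.24 ± 0.12, a 2.36-fold rise (edgeR adjusted p = 1.67e-06), called under all 20 alternatives at 1.14 to 1.64. Nearly all of it was 1 coding model, Socs3-201, at 261 ± 37.5 TPM at day 10 and 82.9 ± 6.15 TPM at day 0. In coding TPM, Socs3 over Stat3 was 3.92 ± 0.515 at day 10 and 1.95 ± 0.195 at day 0.

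The Socs3 promoter is shown because it alone among the 10 genes holds the motif bound by STAT factors, TTCNNNGAA, in the window from 250 bases before to 50 after the gene start. The motif reads alike on both strands, and no other motif was searched. The sequence, from RefSeq on GRCm38.p6 at chr11:117969317-117969616 on the minus strand, carries the match in capitals, starting 154 bases before the gene start.
Socs3: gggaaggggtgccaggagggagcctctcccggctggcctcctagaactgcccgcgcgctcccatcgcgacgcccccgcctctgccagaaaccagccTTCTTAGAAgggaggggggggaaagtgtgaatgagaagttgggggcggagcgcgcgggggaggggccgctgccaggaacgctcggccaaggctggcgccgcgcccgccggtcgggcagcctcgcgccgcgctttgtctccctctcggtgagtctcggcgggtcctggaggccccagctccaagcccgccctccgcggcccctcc
All 10 genes had a promoter in the table, in 12 windows, of which 1 held the motif. Over all genes with a promoter there, 2582 of 27025 (9.55%) held it, so 1 gene of 10 is a share near that of all genes, and a match is a description of the letters only.

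Pim1 (ENSMUSG00000024014, chromosome 17) and Pim3 (ENSMUSG00000035828, chromosome 15) encode related survival kinases, both known as LIF and STAT3 targets in mouse stem cells. Pim1 did not pass the test. It had 36.9, 23.2, 26.1 and 31.8 CPM in the day 10 libraries, against 33.5, 28.7, 30.0 and 31.5 CPM in the day 0 libraries, with a log2 fold change of -0.07 ± 0.13 (edgeR adjusted p = 0.642). The day 10 values were the more spread and enclosed the day 0 range. On log2(TPM + 1) Pim1 was higher, at 0.65 (limma adjusted p = 5.64e-04, 20 alternatives up to 0.901), and 0.27 after subtracting the all-gene median. Its longest coding model, Pim1-201, was level, at 13.02 ± 2.03 TPM at day 10 and 13.12 ± 2.01 TPM at day 0. Shorter models were higher at day 10, such as Pim1-203 of 867 nt, at 4.44 ± 1.86 TPM, against 0.684 ± 0.347 TPM at day 0.

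Pim3 fell. It had 19.8, 17.0, 20.8 and 18.6 CPM in the day 10 libraries, against 49.4, 51.7, 62.0 and 58.5 CPM in the day 0 libraries. The ranges were far apart and the log2 fold change was -1.54 ± 0.10, or 0.343 times the day 0 level (edgeR adjusted p = 2.96e-09), called under all 20 alternatives at -1.60 to -0.87. Its coding model, Pim3-201, was at 14.9, 15.4, 15.2 and 14.1 TPM in the day 10 libraries, against 33.7, 33.5, 36.3 and 34.1 TPM in the day 0 libraries. Per length, Pim3 over Pim1 was 0.633 ± 0.0895 at day 10 and 2.45 ± 0.394 at day 0 in coding TPM, so that the order of the 2 kinases was opposite on the 2 days in every library.

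**Figure D3:**
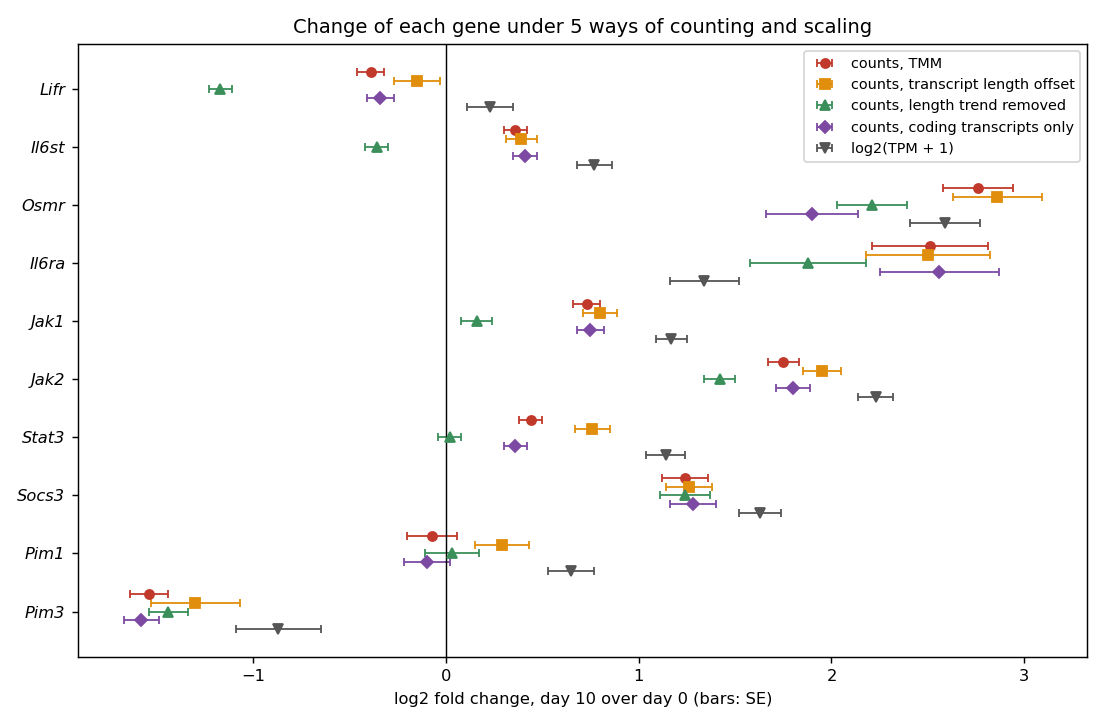
Log2 fold change, day 10 over day 0, of each gene under 5 ways of counting and scaling, with SE as bars. Osmr, Il6ra, Jak2 and Socs3 stay right of 0 and Pim3 left of it in all 5, while Lifr, Il6st and Pim1 lie on both sides and Stat3 reaches 0.02 with the length trend removed.

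In coding TPM, which includes short and incomplete coding models, the genes ranked differently on the 2 days. At day 10 Socs3 led, at 261 ± 37.5 TPM, followed by Lifr (93.6 ± 2.69), Il6st (87.0 ± 7.19), Stat3 (66.6 ± 2.37), Jak1 (58.6 ± 4.03), Jak2 (46.7 ± 3.07), Pim1 (23.9 ± 2.78), Pim3 (14.9 ± 0.596), Osmr (3.54 ± 0.598) and Il6ra (2.37 ± 0.719). Neighbours whose ranges overlapped at day 10 were Lifr with Il6st and Osmr with Il6ra. At day 0 Lifr led, at 103 ± 8.10 TPM, followed by Socs3 (82.9 ± 6.15), Il6st (50.3 ± 3.68), Stat3 (42.6 ± 2.43), Pim3 (34.4 ± 1.28), Jak1 (27.0 ± 0.833), Pim1 (14.3 ± 1.91), Jak2 (9.15 ± 0.569), Osmr (0.722 ± 0.224) and Il6ra (0.310 ± 0.0781). No neighbours overlapped in range at day 0.

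The genes with the most similar profile over the 8 libraries, among 9474 protein-coding genes of at least 10 CPM, were found by Euclidean distance of centred log2 CPM. Lifr was nearest to Trip12 (distance 0.105), Eif4g2 (0.110) and Ccpg1 (0.115). Stat3 was nearest to Foxp1 (0.0573), Pds5b (0.0976) and Ppp1r10 (0.117). Socs3 lay farther from its neighbours Efna2 (0.252), Add3 (0.278) and Ccdc102a (0.297).

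The other genes of the pathway were taken from lists. Their counts of calls stand beside 42.7% of all genes tested called higher and 39.4% called lower at day 10. Ligands were scarce on both days. Of 10 ligand genes of the gp130 family 4 could be tested, of which 1 rose and 3 did not pass. Clcf1, a ligand of the ciliary neurotrophic factor receptor, rose to 4.18 ± 0.896 CPM at day 10, against 0.438 ± 0.237 CPM at day 0 (log2 fold change 3.23 ± 0.35, edgeR adjusted p = 9.23e-07). That rise lay on non-coding models: the coding TPM of Clcf1 was listed at 0 in all 4 day 10 libraries and averaged 0.00168 TPM at day 0. Lif itself, named after its values were seen, was at 4.08 ± 1.31 CPM at day 10 and 4.03 ± 0.760 CPM at day 0 (log2 fold change 0.01 ± 0.26, edgeR adjusted p = 0.975). Too low to test, in counts over the 4 libraries of each day, were Il6 (17 at day 10 and 1 at day 0), Il11 (32 at day 10 and 10 at day 0), Osm (4 at day 10 and 3 at day 0), Ctf2 (3 at day 10 and 7 at day 0), Ebi3 (35 at day 10 and 3 at day 0) and Il27 (0 on both days). A count of 0 allows up to 3 counts over a group, or 0.0501 CPM at day 10 and 0.0558 CPM at day 0.

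Of 4 further receptor chains and partners, 2 rose, 1 fell and Cntfr did not pass. Il11ra1, the receptor chain for interleukin-11, rose to 40.2 ± 6.18 CPM at day 10, against 7.47 ± 0.595 CPM at day 0 (log2 fold change 2.42 ± 0.13, edgeR adjusted p = 3.74e-10). Coding models held a small part of Il11ra1 TPM, at 9.36 ± 1.58 of 181.6 TPM at day 10 and 0.806 ± 0.399 of 26.8 TPM at day 0. Il27ra fell to 0.328 ± 0.114 CPM at day 10, against 2.09 ± 0.234 CPM at day 0 (edgeR adjusted p = 6.00e-06). The receptor chains for oncostatin M, interleukin-6 and interleukin-11 were thus each higher at day 10, and their ligands Osm, Il6 and Il11 stood at 32 counts or fewer over a group.

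Among 8 other JAK and STAT genes 3 rose, 3 fell and 2 did not pass, with a median log2 fold change of 0.18. Stat5b, a STAT of growth hormone and prolactin signalling, rose to 43.2 ± 0.483 CPM at day 10, against 17.8 ± 2.15 CPM at day 0 (log2 fold change 1.27 ± 0.10). Stat6 rose by 0.57 ± 0.10 on the log2 scale, and did not pass once the length trend was removed (0.24, edgeR adjusted p = 0.0640, the highest of 20 alternatives from 2.50e-06). Stat4, named after its values were seen, fell to 0.387 ± 0.297 CPM at day 10, against 6.63 ± 1.53 CPM at day 0.

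Of 15 other SOCS, PIAS and phosphatase genes, which restrain the pathway at various steps, 9 rose, 3 fell and 3 did not pass, with a median of 0.29. Socs6 rose by 0.75 ± 0.06 and Ptpn11, the phosphatase SHP2 that also links gp130 to the MAP kinase branch, by 0.58 ± 0.06 on the log2 scale. Ptpn11 was at -0.06 with the length trend removed (edgeR adjusted p = 0.381, the highest of 20 alternatives from 3.49e-15). Pias2 fell to 102 ± 1.41 CPM at day 10, against 187 ± 13.8 CPM at day 0. Named after their values were seen, Cish, a SOCS-family target of STAT5, rose by 2.39 ± 0.16 and Socs5 by 1.53 ± 0.10, and Ptpn6, the phosphatase SHP1, fell, with a log2 fold change of -2.07 ± 0.12.

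Among 10 other genes known as targets of LIF or STAT3, 2 rose and 8 fell, beside 42.7% and 39.4% of all genes tested. Their median log2 fold change was -1.75, beside 0.06 over all genes tested. The fallers include stem cell factors, and their dependence on LIF, STAT3 or other regulators was not tested. Mcl1, a survival factor of the BCL2 family, fell to 316 ± 28.9 CPM at day 10, against 529 ± 26.4 CPM at day 0. Klf5, a stem cell transcription factor, fell to 42.0 ± 13.9 CPM at day 10, against 291 ± 14.6 CPM at day 0 (log2 fold change -2.79 ± 0.22). Klf4, another stem cell factor, fell by a small margin, at 157 ± 12.7 CPM at day 10 and 179 ± 9.81 CPM at day 0 (-0.19 ± 0.07, edgeR adjusted p = 0.0224). That call ended without day 0 library 4 (edgeR adjusted p = 0.0515, 20 alternatives from 6.15e-04 to 0.0943), with the length offset and with coding transcripts only, and on log2(TPM + 1) Klf4 was higher, at 0.24.

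Named after their values were seen, the targets moved apart. Gbx2, which can sustain stem cells downstream of STAT3, fell to 0.466 ± 0.520 CPM at day 10, against 116 ± 19.2 CPM at day 0. Tfcp2l1, another such factor, fell to 29.5 ± 13.0 CPM at day 10, against 171 ± 11.7 CPM at day 0. Pim2, the remaining kinase of the Pim family, fell to 3.16 ± 0.836 CPM at day 10, against 51.9 ± 5.37 CPM at day 0. Junb, an AP-1 subunit, rose to 167 ± 30.1 CPM at day 10, against 16.9 ± 3.27 CPM at day 0, and Cebpd rose to 11.4 ± 4.22 CPM at day 10, against 4.35 ± 0.855 CPM at day 0. Myc, the proto-oncogene, fell to 5.95 ± 0.962 CPM at day 10, against 26.7 ± 8.86 CPM at day 0. Socs3, Junb and Cebpd were thus higher at day 10 where Pim3, Pim2, Gbx2, Tfcp2l1, Klf5, Myc and Mcl1 were lower. Bcl3 (log2 fold change -1.35 ± 0.19) and, by a small margin, Klf4 were also lower by counts, and Pim1 did not pass.

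**Figure D4:**
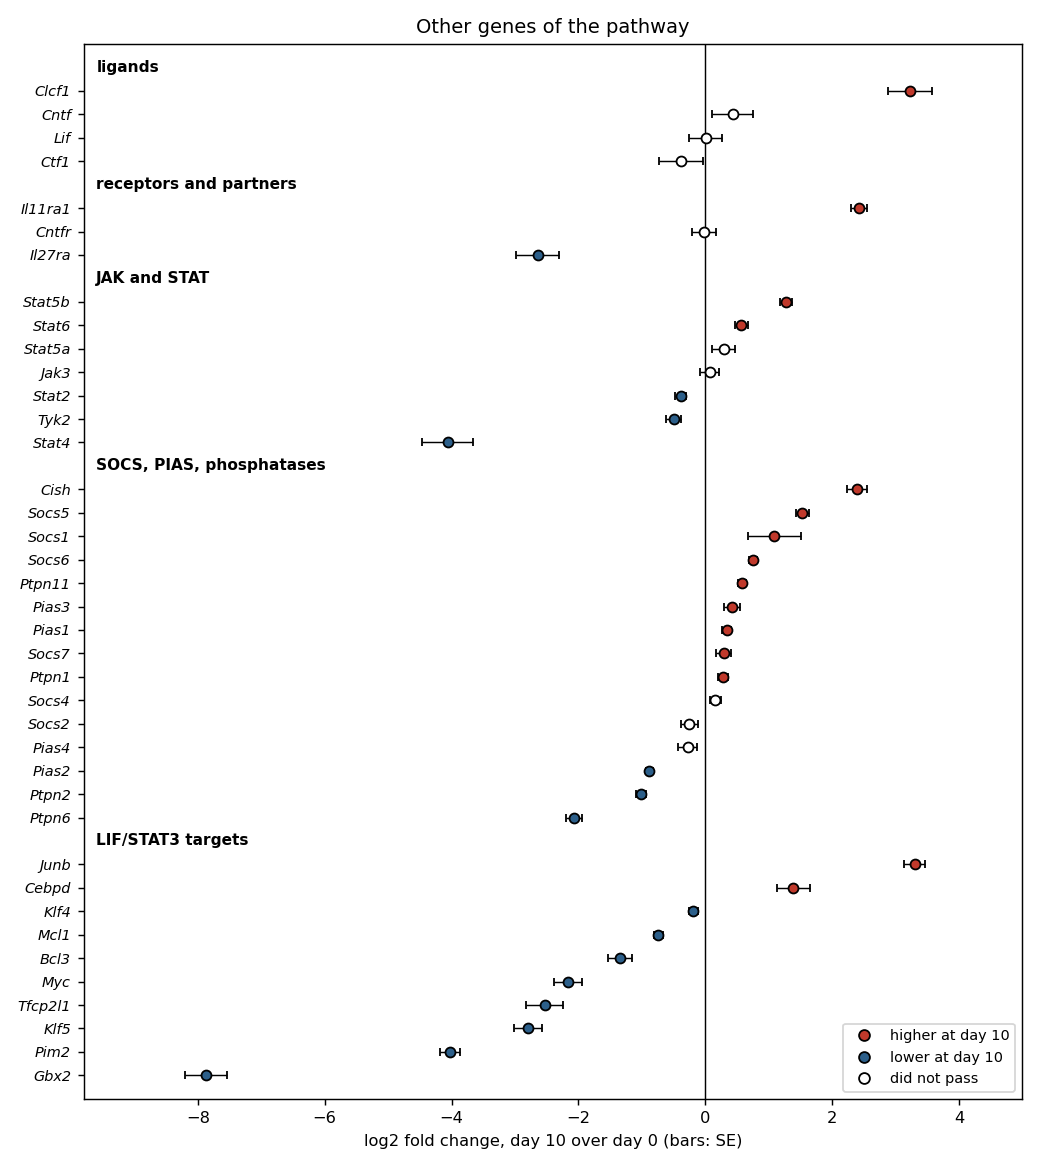
Log2 fold change, day 10 over day 0, of genes tested from 5 lists, with SE as bars and colour for the call. Of the targets 8 of 10 lie left of 0, with Gbx2 farthest at -7.87, and Junb lies farthest right at 3.30.

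Results depended on how transcript length entered. Counts of coding transcripts only left 7 of the 10 genes called higher and 2 lower (all genes 6146 and 5628 of 14725 tested). With the length offset 7 were higher and 1 lower (all genes 40.8% and 37.2%). With the length trend removed 4 were higher and 3 lower (all genes 39.8% and 41.5%). On log2(TPM + 1), where the median of all genes was 0.38, 8 were higher and 1 lower (all genes 51.2% and 27.3%). Osmr, Il6ra, Jak2 and Socs3 were called higher and Pim3 lower under all 20 alternatives.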

How the data were processed

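Each library has 1 table deposited by the authors, which lists 126126 transcripts with length, effective length, estimated counts and TPM, per the file headers. Kallisto, with its version given only as 1, made the estimated counts and DESeq2 is also named, per the submitters' processing notes. For reference and build, nothing is given in the sources used here. The deposited TPM values are scaled for effective length by the authors. Transcripts were joined to GENCODE M21 by identifier without version (93.6% matched). All 64 transcripts of the 10 genes had equal length in both sources. Estimated counts were summed per gene and rounded.

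The quasi-likelihood test of edgeR 4.0.16 (R 4.3.3; TMM scaling, robust fit, low counts filtered by filterByExpr) was run over 15097 genes, with Benjamini-Hochberg adjustment and a threshold of 0.05. The test was tested on simulated data. The common biological coefficient of variation was 12.5%. Alternatives were DESeq2 1.42.0, other scalings and filters, a replicate block, libraries left out, length offsets, and limma 3.58.1 (trend) on log2(TPM + 1), where fold changes of low genes are understated. Kallisto shares reads between overlapping transcripts, so levels of single models are uncertain and antisense reads cannot be told apart. Floors cover counting error only.

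The 10 genes, lists and tests were chosen with earlier results of these data known. Named from each list were the 3 called genes of highest mean CPM and every gene too low to test, and other names are marked as chosen after their values were seen. Of the listed genes 2 are counted but not reported here by name.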

Additional observations from a re-analysis of the deposited data

Results flagged for a closer look

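In 2 of 36 groups of 4 libraries 1 library stood apart from the other 3, about the number chance gives at 1 in 20. Stat3 in day 10 library 1 was at 157.2 CPM, above 143.3 to 144.4 CPM in the others. The share of Pim3 TPM held by its coding model was 90.5% in day 0 library 1, above 53.7 to 59.6% in the others of that day. There the non-coding model Pim3-202, of 522 nt, was at 3.53 TPM, below 22.7 to 29.5 TPM in the others.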

How the results depend on the processing

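Of 200 alternative values for the 10 genes, 187 kept direction and call, 3 lost the call and 10 turned direction. Lifr turned on TPM, to 0.23 with pseudocounts 1 and 0.1 and without a filter, and Il6st with the length trend removed (-0.36). Pim1, never called on counts, turned to 0.29 with the length offset, 0.03 with the trend removed, 0.65 and 0.67 on TPM with pseudocounts 1 and 0.1, and 0.65 without a filter. With single libraries left out Pim1 ran from -0.21 to 0.03, the highest being without day 10 library 2. Genes called lower numbered 1 of 10 with the length offset and under the 3 TPM settings, and those called higher numbered 4 with the trend removed. Among other named genes Ptpn11 turned to -0.06 with the trend removed and Klf4 to 0.24 under the 3 TPM settings. In shares of estimated counts the leading model of Lifr turned to 6.65 percentage points and passed (exact permutation adjusted p = 0.0457). Il6st (-10.5), Osmr (10.3), Jak2 (15.3) and Stat3 (-9.65) passed there at the same adjusted p. The causes were not tested. Clcf1 was too low to give a value with coding transcripts only. With single libraries left out, differences in the leading share, day 10 minus day 0, ran from -3.51 to 0.967 percentage points for Lifr, -12.4 to -10.1 for Il6st, 12.7 to 21.9 for Osmr, -5.26 to -2.64 for Jak1, 18.2 to 23.9 for Jak2, -16.3 to -11.3 for Stat3, -25.2 to -17.4 for Pim1 and -20.6 to -3.34 for Pim3. TMM scaling of TPM moved levels, such as that of Stat3 to 103.8 TPM at day 10 and 60.3 TPM at day 0. The median log2 fold change of all genes was 0.06 on counts and 0.38 on log2(TPM + 1). Calls higher at day 10 made 52.0% of all calls on counts and 65.2% on TPM. Replicate numbers were not used to pair libraries in the main test, and whether they stand for pairs is not known. Same-numbered libraries correlated at 0.030 to 0.049 in their deviations. With the replicate block 12298 genes were called, beside 12399 without it, with 7 of the 10 genes higher and 2 lower. Each library correlated best with its own number, which is a hint from the data and not the design.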
